A study of Mus musculus with 6 samples.

Results

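SMCs of proximal PA preparations that carried a transcript of Cdkn1a were compared with SMCs of the same library that did not. The cells came from 3 old C57BL/6J WT mice of 20, 27 and 28 months, with no treatment. The study describes the mice of 20 and 27 months as males and the mouse of 28 months as a female. The series examined how the proximal PA changes between young and old mice. It holds 6 libraries here, 2 of them from mice of 3 months. Each library is taken as the digested proximal PA of a single mouse, excised together with tissue around it. Counts are of unique molecular identifiers (UMIs), each the tag of a single captured RNA. A barcode counted as a cell with 2000 or more UMIs, 1000 or more genes and no more than 20% mitochondrial UMIs. An SMC had at least 3 UMIs of Myh11, Cnn1, Lmod1, Actg2 and Myocd together, and more than 2 times as many as of 7 genes of leukocytes, ECs, FBs, mesothelium and airway epithelium. Each SMC was thinned at random to 2000 UMIs, so that deeper cells had no better chance of showing Cdkn1a. The classes were thus chosen by the Cdkn1a count itself: cells that kept at least 1 Cdkn1a UMI were Cdkn1a-positive, and those at 0 negative. Of 7925 cells in the series, 3317 were such SMCs, and 564 of these were positive and 2753 negative. The libraries of 3 and 24 months held 0 SMCs by this rule, so no comparison with young SMCs was possible.

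Cdkn1a encodes p21, an inhibitor of cyclin-dependent kinases that halts the cell cycle. The transcription factor p53 raises it after DNA damage, and it is widely used as a marker of senescence, in which cells leave the cycle for good and often secrete proteases, growth factors and cytokines. Cdkn1a also responds to serum, TGF-beta and stress without p53. In the media of arteries, SMCs are mostly quiescent contractile cells, so a raised p21 level there need not mark a cell that was about to divide.

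Promoter stretches are shown for Cdkn1a and for 3 p53-responsive genes described below whose windows matched a p53 sequence pattern, Rps27l, Ccng1 and Bax, because p53 target genes recur in the results. Other listed targets with a match are counted but not shown. They were read 5′ to 3′ on the gene's strand from RefSeq promoter windows of GRCm38.p6, which run from 250 bases before a transcription start to 50 after it. Capitals mark the p53 consensus decamer, a half-site and not a full p53 site. It was searched on both strands at once since its pattern reads the same on each. The stretches of Cdkn1a (chr17:29090886-29090957, plus strand), Ccng1 (chr11:40755442-40755491, minus strand) and Bax (chr7:45467070-45467119, minus strand) lie upstream of the annotated transcripts. That of Rps27l (chr9:66946183-66946335, plus strand) lies in an intron of 3 of its 6 annotated transcripts and in no exon.
Cdkn1a: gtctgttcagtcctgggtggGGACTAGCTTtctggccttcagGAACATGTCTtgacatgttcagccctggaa
Rps27l: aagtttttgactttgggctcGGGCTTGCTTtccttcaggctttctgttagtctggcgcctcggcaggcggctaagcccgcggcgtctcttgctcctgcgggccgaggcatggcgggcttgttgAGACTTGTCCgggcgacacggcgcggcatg
Ccng1: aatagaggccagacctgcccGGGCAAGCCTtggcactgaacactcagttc
Bax: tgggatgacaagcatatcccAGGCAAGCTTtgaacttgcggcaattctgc

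Cdkn1a had 2 windows, of which the first held 2 decamers, starting 73 and 51 bases before its transcription start. The second, at a start farther downstream, held 0. One of the Rps27l windows also held 2, starting 210 and 107 bases before its transcription start and so farther apart. Of all 32851 windows, 8.36% held at least 1 decamer and 0.359% held 2. Among Cdkn1a and the listed p53 targets, 9 of the 21 genes with a window held one (42.9%), against 9.55% of all genes. The windows of Phlda3, Btg2 and Tob1 held none. That of Exoc4, a gene described below that is not a listed target, held 1, starting 203 bases before its transcription start. A match to these letters is a description and not evidence that p53 bound there.

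The libraries differed strongly in depth and in SMCs. They held 7042921 UMIs at 20 months, 36218542 at 27 months and 50436562 at 28 months, and gave 125, 2288 and 904 SMCs. The median UMI count of an SMC was 3278, 9645.5 and 6872 in the same order, so the 20-month library rests on few and shallow cells. Its SMCs held 310 Xist UMIs and 32 UMIs of Y-linked genes, although the study calls the mouse a male. SMCs of the library of 27 months held 36 and 7823, and those of 28 months held 5367 and 4. Values without the library of 20 months are given where they change a call, and for some of the estimates that they move. An estimate given without such a value may still move. Scrublet marked 0, 32 and 16 of the SMCs as doublets, which were kept here, and only 1 barcode was shared between SMCs of different libraries.

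Cdkn1a-positive cells made up similar shares of the SMCs at 20 and 27 months and a smaller share at 28 months. These shares chose the classes and are given without a test. At 20 months, 25 of 125 SMCs were positive (20.0%, 95% exact binomial interval from 13.4% to 28.1%). At 27 months the share was 466 of 2288 (20.4%, from 18.7% to 22.1%). At 28 months it was 73 of 904 (8.08%, from 6.38% to 10.0%). The intervals cover counting error only. Without thinning, 26.4%, 51.0% and 18.8% of the SMCs had a Cdkn1a UMI. Most positive cells sat at the threshold. Of them 17, 342 and 47 had exactly 1 UMI, 4, 77 and 17 had 2, and 4, 47 and 9 had 3 or more, with a highest value of 11. The variance of the count was 1.71, 1.85 and 2.02 times its mean, where counts drawn at 1 common rate would give a ratio of 1.

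Free RNA in the droplets also held Cdkn1a, and how much of it entered each cell was not measured. Droplets with 10 to 100 UMIs held Cdkn1a at 174, 61.1 and 70.6 CPM at 20, 27 and 28 months (CPM is a gene's UMIs as a share of the summed UMIs, scaled to a total of 1000000), from 464, 208 and 10 UMIs. SMCs held 152, 148 and 63.1 CPM. Only at 27 months was the SMC level above that of the near-empty droplets, and the value at 28 months rests on 10 UMIs. B cells gave a second comparison. They held Cdkn1a at 33.3 CPM at 27 months and 25.1 CPM at 28 months, below the near-empty droplets of both libraries. Of these cells 6.67% had a Cdkn1a UMI at 27 months (2 of 30, from 0.818% to 22.1%) and 3.77% at 28 months (9 of 239, from 1.74% to 7.03%), with median depths of 3983 and 8061 UMIs. In both libraries the interval of B cells overlapped that of SMCs. ECs were positive in 62.5%, 24.0% and 18.7% of cells and FBs in 46.2%, 23.0% and 14.9%, at the same 2000 UMIs.

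**Figure D1:**
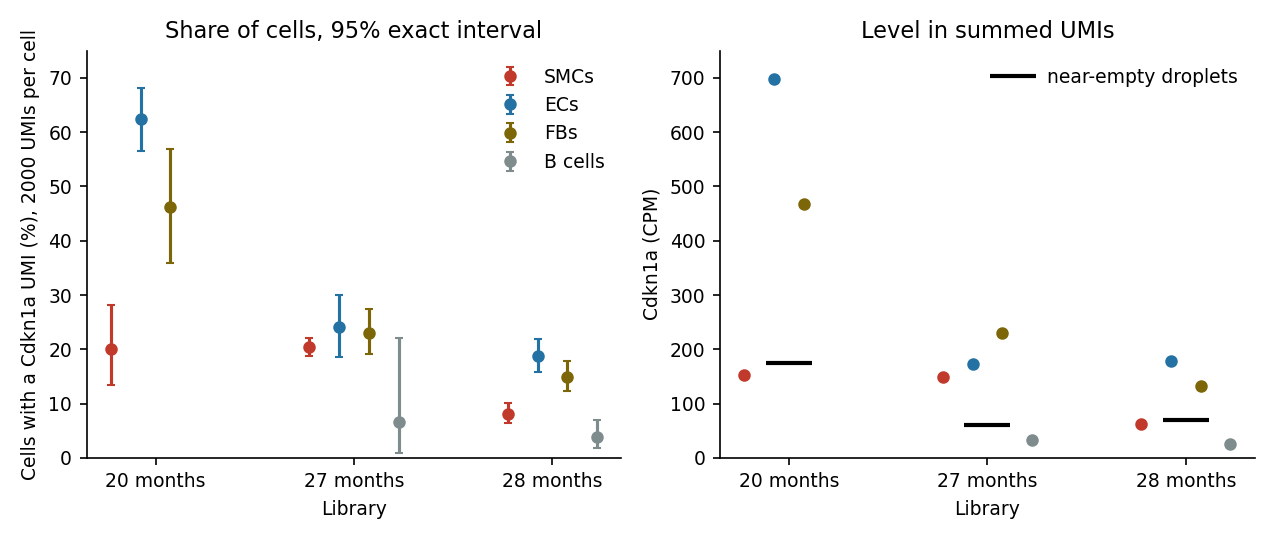
Left, percent of SMCs, ECs, FBs and B cells with a Cdkn1a UMI at 2000 UMIs per cell in each library, with 95% exact binomial intervals. Right, Cdkn1a in CPM in the same cells, with bars for near-empty droplets, where SMCs lie above the bar at 27 months (148 against 61.1 CPM) and below it at 20 and 28 months.

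The classes also differed in Cdkn1a UMIs that had played no part in the choice. In SMCs with at least 4000 UMIs, a further 2000 UMIs were drawn from those left over. Cdkn1a was among them in 39.1% of 450 positive and 16.4% of 1743 negative cells at 27 months. At 28 months it was found in 31.8% of 66 positive and 5.91% of 745 negative cells. At 20 months, 4 of 6 positive and 3 of 29 negative cells held one. The level in this second draw was 348 against 97.5 CPM at 27 months and 318 against 31.5 CPM at 28 months. Negative cells were thus not free of Cdkn1a UMIs, and a class is a range of a count and not a cell type. Both draws came from the same droplets, so free RNA could add to each, and its part was not tested.

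Both classes were SMCs by their markers and had similar quality. The contractile list of 25 genes, none of them used by the gate, summed to between 47113 and 73840 CPM in positive and between 50060 and 79210 CPM in negative cells. Median UMIs per cell, positive against negative, were 3086 and 3346.5 at 20 months, 9713.5 and 9630 at 27 months, and 7196 and 6843 at 28 months. The mean difference in UMIs was 58.7 ± 308 (SD, n = 3 pairs, exact sign-flip permutation p = 0.75, two-sided, where 3 pairs cannot give less than 0.25). The share of mitochondrial UMIs differed by -0.129 ± 0.329 percentage points (exact permutation p = 0.75, n = 3 pairs) and that of ribosomal protein UMIs by 0.25 ± 0.368 (exact permutation p = 0.5). Genes per cell at 2000 UMIs differed by 9.33 ± 16.9 (exact permutation p = 0.75).

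Transcripts of other cells were present in both classes at levels that differed by type, highest for red cells at 28 months. The 12 FB markers summed to 720 to 1034 CPM in positive and 1049 to 1140 CPM in negative cells, lower in positive cells in 3 of 3 libraries. The 10 EC markers, positive against negative, summed to 280 and 135 CPM at 20 months, where they were higher in positive cells. They summed to 90.1 and 85.9 CPM at 27 months and 82.2 and 89.7 CPM at 28 months, with Egfl7 at 0. The 10 macrophage markers summed to 0 and 10.0 CPM, 84.8 and 114 CPM, and 301 and 229 CPM in the same order, higher in positive cells at 28 months only. The 4 mesothelial markers summed to 0 to 3.22 CPM in positive and 0 to 12.3 CPM in negative cells. The 6 lymphocyte markers summed to 0 to 6.85 and 0 to 12.6 CPM, with Cd3e and Trbc2 at 0. Pericyte markers summed to 360 to 1177 against 410 to 1283 CPM, with lower values in positive cells in 3 of 3 libraries. The 8 airway epithelial markers summed to 27.4 to 74.0 and 37.9 to 74.1 CPM. The 2 airway smooth muscle markers summed to 140 to 442 and 90 to 453 CPM. The gate held no gene of airway smooth muscle, so such cells were not set apart from SMCs of the artery. The 7 cardiac genes summed to 240 against 725 CPM at 20 months, 335 against 378 CPM at 27 months and 356 against 291 CPM at 28 months, with Myh6, Myl7 and Nppa at 0. Among them Actc1, cardiac actin, gave a log2 fold change of -0.40 ± 0.15 (edgeR, adjusted p = 0.795) and Tnnt2 0.03 ± 0.15. The 4 red cell genes summed to 60.0 against 10.0 CPM at 20 months, 19.3 against 222 CPM at 27 months and 3699 against 7801 CPM at 28 months. The part of such transcripts in the gene results was not tested.

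Few genes differed between the classes beyond the spread between libraries. Counts were summed per class and library and compared as 3 pairs by the quasi-likelihood F test of edgeR (p adjusted by Benjamini-Hochberg), over 4046 genes with a UMI in more than 5% of SMCs in every library. Each library was 1 mouse, so the replicates are these 3 mice. The test also draws the spread of each gene toward that of other genes. A low p-value therefore does not mean that the 3 pairs of that gene agreed. Peak1 fell and Nxph1 rose in Cdkn1a-positive SMCs, and no other gene passed the test. These calls are 0.0247% of the tested genes in each direction and 0.0494% in both. At an unadjusted p under 0.05, 92 genes were higher (2.27%) and 66 lower (1.63%), together 3.91%. Over all genes in the fit the log2 fold change had a median of -0.0023.

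Peak1 encodes a pseudokinase scaffold that acts at the actin cytoskeleton and in focal adhesions. Its level in positive against negative cells was 440 and 990 CPM at 20 months, 422 and 647 CPM at 27 months, and 329 and 369 CPM at 28 months. This level was lower in positive cells in all 3 libraries, by the least at 28 months. The share of cells with a Peak1 UMI differed less. It was 28% of positive and 32% of negative cells at 20 months, 47.4% and 48.7% at 27 months, and 49.3% and 46.5% at 28 months. The fitted log2 fold change was -0.61 ± 0.12 (SE, edgeR quasi-likelihood test, adjusted p = 0.000867). Without the library of 27 months the estimate was -0.57 and did not pass (edgeR, adjusted p = 1). It also did not pass with the thinning redrawn, at -0.44 and -0.42 (edgeR, adjusted p = 0.169 and 1), or with every UMI of each cell, at -0.50 (edgeR, adjusted p = 1).

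Nxph1 encodes a secreted glycoprotein that binds neurexins. Positive and negative cells held it at 40.0 and 65.0 CPM at 20 months, from 2 and 13 UMIs. The values were 193 and 91.1 CPM at 27 months and 205 and 185 CPM at 28 months. The rise was thus carried by the library of 27 months, and the library of 20 months went the other way. The log2 fold change was 0.78 ± 0.15 (edgeR quasi-likelihood test, adjusted p = 0.000867). It was 0.05 ± 0.35 without the library of 27 months, and 0.61 ± 0.15 and 0.25 ± 0.17 with the thinning redrawn, none of which passed.

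The genes next in rank did not pass. Among those higher in positive cells were Rps27l (log2 fold change 0.48 ± 0.12, edgeR adjusted p = 0.0949), Dlg2, a scaffold of the synaptic membrane (0.81 ± 0.21, adjusted p = 0.125), the AP-1 subunits Fos (0.41 ± 0.11) and Junb (0.42 ± 0.11), and Exoc4, a subunit of the exocyst that tethers secretory vesicles (0.49 ± 0.13, adjusted p = 0.145). Among those lower were Ramp1, a co-receptor of CGRP, a vasodilator peptide (-0.50 ± 0.14, edgeR adjusted p = 0.235) and the NADPH oxidase Nox4, a source of hydrogen peroxide in SMCs (-0.37 ± 0.11, adjusted p = 0.463). Nox4 stood at 220 and 240 CPM at 20 months, 638 and 752 CPM at 27 months, and 603 and 942 CPM at 28 months in positive and negative cells. Cdk2ap2, Adamtsl5 and Ccdc3 followed at -0.57, -0.56 and -0.52 (edgeR adjusted p = 0.64 for each), but with every UMI counted Cdk2ap2 and Adamtsl5 stood at -0.0051 and -0.05. Ramp1 stood at -0.17 ± 0.11 with every UMI, -0.06 at 4000 UMIs, and -0.09 and -0.26 with the thinning redrawn.

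**Figure D2:**
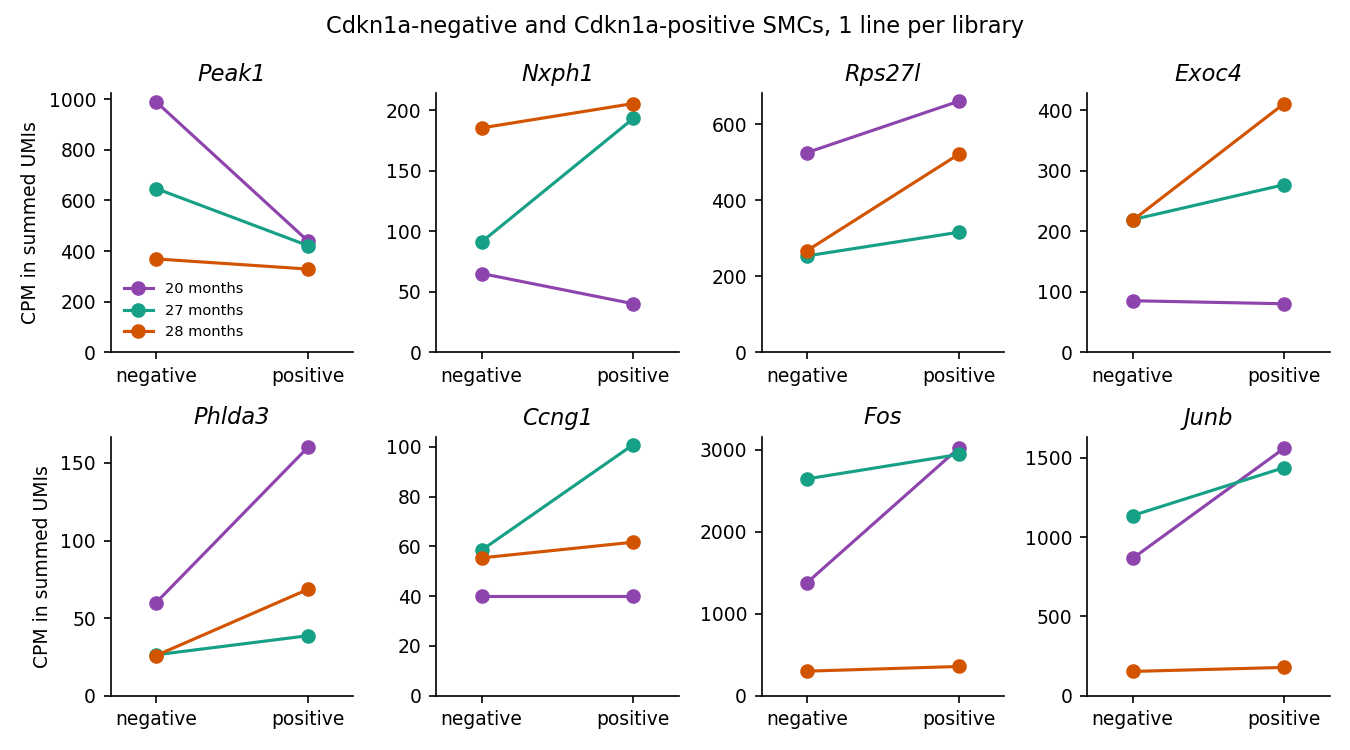
CPM of 8 genes in summed thinned UMIs of Cdkn1a-negative and Cdkn1a-positive SMCs, with 1 line per library. Peak1 is lower in positive cells in all 3 libraries, while Nxph1 rises steeply at 27 months and falls at 20 months.

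Targets of p53 leaned upward without passing the test. Of 26 listed targets other than Cdkn1a, 8 had enough cells to be tested, 6 of these lay above 0 and 0 passed. For comparison, 49.2% of all tested genes lay above 0. The median log2 fold change was 0.39, against -0.0023 over all tested genes. It was 0.22 with the third seed, where 2 of 8 were higher at an unadjusted p under 0.05, and 0.20 at 4000 UMIs, where 3 of 14 were. At an unadjusted p under 0.05, 5 of 8 were higher and 0 lower, where the background is 2.27% and 1.63%. In the libraries the medians of the log2 ratios were 0.61, 0.18 and 0.34 at 20, 27 and 28 months.

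Ccng1, which encodes cyclin G1, a regulator of p53 turnover, stood at 40.0 in both classes at 20 months, at 101 and 58.5 CPM at 27 months, and at 61.6 and 55.4 CPM at 28 months. Its log2 fold change was 0.66 ± 0.20 (edgeR, adjusted p = 0.366). Phlda3, an inhibitor of Akt signalling, stood at 160 and 60.0, 38.6 and 26.3, and 68.5 and 25.9 CPM, higher in positive cells in all 3 libraries but from only 8, 36 and 10 UMIs. Tob1 and Btg2, both antiproliferative factors that recruit the deadenylase of mRNA, gave 0.52 ± 0.17 and 0.34 ± 0.12 (edgeR, adjusted p = 0.566 and 0.64). Bax, which permeabilises mitochondria in apoptosis, gave 0.44 ± 0.21. The other members were near or below 0, namely the death receptor Fas (-0.09 ± 0.18), the desmosomal protein gene Perp (-0.29 ± 0.18) and Sesn1, a stress-induced inhibitor of mTORC1 (0.08 ± 0.17).

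Rps27l encodes a ribosomal protein paralog that p53 is known to induce, and was not on the list. Positive and negative cells held it at 660 and 525 CPM at 20 months, 315 and 253 CPM at 27 months, and 521 and 267 CPM at 28 months. It was higher in positive cells in 3 of 3 libraries, as were 11.7% of all tested genes. Its near-identical paralog Rps27, with which it could share reads, stood at 0.06 ± 0.10 (log2 fold change).

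Counting every UMI of each cell, with the classes kept as chosen, gave more depth and a different set of calls. Over 6471 genes, 8 passed and all were higher in positive SMCs (0.124% of the tested genes). The 8 were Phlda3, Dnm3, Thbs1, Exoc4, Rps27l, Vcam1, Ephx1 and Mmp3, while Peak1 and Nxph1 did not pass in this fit. None of them passed in the thinned counts as first drawn, where Dnm3, Thbs1 and Vcam1 were in too few cells to be tested. At an unadjusted p under 0.05, 1.84% of genes were higher and 1.07% lower, together 2.91%. In other settings of thinned counts some of them passed: Rps27l, Exoc4 and Mmp3 with the second seed, Exoc4, Ephx1 and Mmp3 with at least 2 Cdkn1a UMIs, Rps27l without TMM normalization, without the library of 20 months or with doublets removed, and Phlda3 at 4000 UMIs. Phlda3 was higher in positive cells in each library, at 143 and 47.8 CPM at 20 months, 56.0 and 26.6 CPM at 27 months, and 89.5 and 30.1 CPM at 28 months. Its log2 fold change was 1.21 ± 0.14 (edgeR, adjusted p = 1.28e-05).

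Dnm3, a dynamin of endocytosis, stood at 23.8 and 19.7, 25.5 and 10.2, and 76.4 and 19.2 CPM in the same order (1.5 ± 0.19, edgeR adjusted p = 4.38e-05). Thbs1, the matricellular protein thrombospondin 1, stood at 71.4 and 33.8, 70.4 and 43.9, and 28 and 13.3 CPM (0.72 ± 0.14, edgeR adjusted p = 0.0284). Ephx1, the microsomal epoxide hydrolase, stood at 167 and 87.3, 88.0 and 65.0, and 101 and 51.0 CPM (0.56 ± 0.12, adjusted p = 0.0373). All 3 were higher in positive cells in every library, as were 13.4% of all genes in this fit. Dnm3 rested on 2 UMIs in positive cells at 20 months. At 28 months 1 positive cell held 9 of the 15 Thbs1 UMIs of its class, and 1 held 11 of the 41 of Dnm3.

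Rps27l gave 0.48 ± 0.10, Exoc4 0.53 ± 0.11 and the matrix protease gene Mmp3 0.52 ± 0.11 (edgeR, adjusted p = 0.0373 for each). The adhesion molecule Vcam1 passed as well, at 1.14 ± 0.22, but against the direction of the library of 20 months, where positive cells held 11.9 and negative cells 53.5 CPM. A single positive cell of 27 months held 50 of the 139 Vcam1 UMIs of its class. Of the p53 list, 11 were tested in this fit, 9 lay above 0, with a median of 0.29, and 1 passed, while 49.6% of all genes in this fit lay above 0.

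Several genes in too few SMCs for either filter were concentrated in positive cells. They were seen among all genes and chosen after their values were seen. Eda2r encodes a receptor of the TNF family that p53 induces. Positive and negative cells held 1 and 1 UMIs at 20 months, 60 and 45 at 27 months, and 10 and 9 at 28 months. This is 12.5 against 2.51 CPM at 27 months and 18.6 against 1.54 CPM at 28 months, in classes of very unequal size. The UMIs came from 33 of the 466 positive and 28 of the 1822 negative cells at 27 months. Gria3, a subunit of AMPA glutamate receptors, stood at 31.1 against 8.63 CPM at 27 months and 55.9 against 4.96 CPM at 28 months, with 0 and 1 UMIs at 20 months. Ano3, of the anoctamin family of membrane proteins, stood at 14.2 against 3.34 and 37.3 against 2.05 CPM.

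A fit of every UMI without a gene filter was added after the counts of Eda2r were seen, so for these genes it gives sizes and no independent test. It called 15 of 27656 genes higher and 15 lower (0.0542% each). The median of all genes in it was -0.16. Fos, Rps27l and Eln also stood lower than with every UMI and the filter, at 0.22, 0.32 and -0.50 against 0.36, 0.48 and -0.32. The cause was not tested. Eda2r gave a log2 fold change of 2.49 ± 0.44, Gria3 2.11 ± 0.24, Ano3 2.48 ± 0.36 and Dnm3 1.37 ± 0.21. Some calls of this fit rested on single cells. All 34 UMIs of Dhrs2 lay in 1 positive cell of 20 months, all 16 UMIs of Ces2e in positive cells lay in 1 cell of 28 months, and 402 of 419 S100a9 UMIs in 1 negative cell of 28 months. Among the genes called lower were genes of other cell types, such as Hbb-bt of red cells, Ighm of B cells, Upk3b of mesothelium and Dcn and Pi16 of FBs. Peak1 (-0.71 ± 0.13) and Eln were also among them.

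Within the positive class several of these transcripts stood higher in cells with more Cdkn1a UMIs at 27 and 28 months. Phlda3 stood at 26.6, 40.2, 68.3 and 151 CPM in cells with 0, 1, 2 and at least 3 Cdkn1a UMIs at 27 months. At 28 months the values were 30.1, 34.4, 149 and 284 CPM, the last from 17 UMIs in 9 cells. Dnm3 followed the same order, at 10.2, 17.7, 34.8 and 67.0 CPM and at 19.2, 25.8, 102 and 318 CPM. Eda2r ran from 2.51 to 73.3 CPM at 27 months and from 1.54 to 33.4 CPM at 28 months. The value of 33.4 CPM rested on 2 UMIs in a class of 9 cells. Rps27l ran from 252 to 494 CPM at 27 months, while at 28 months its highest value was in cells with 2 Cdkn1a UMIs (762 CPM). Peak1 was 528, 457, 276 and 339 CPM at 27 months and showed no order at 28 months. At 20 months the upper classes held 4 cells each, and Phlda3 showed no order, at 47.8, 177, 62.3 and 88.0 CPM. Values by class are a description, since the same contrast had singled out these genes.

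**Figure D3:**
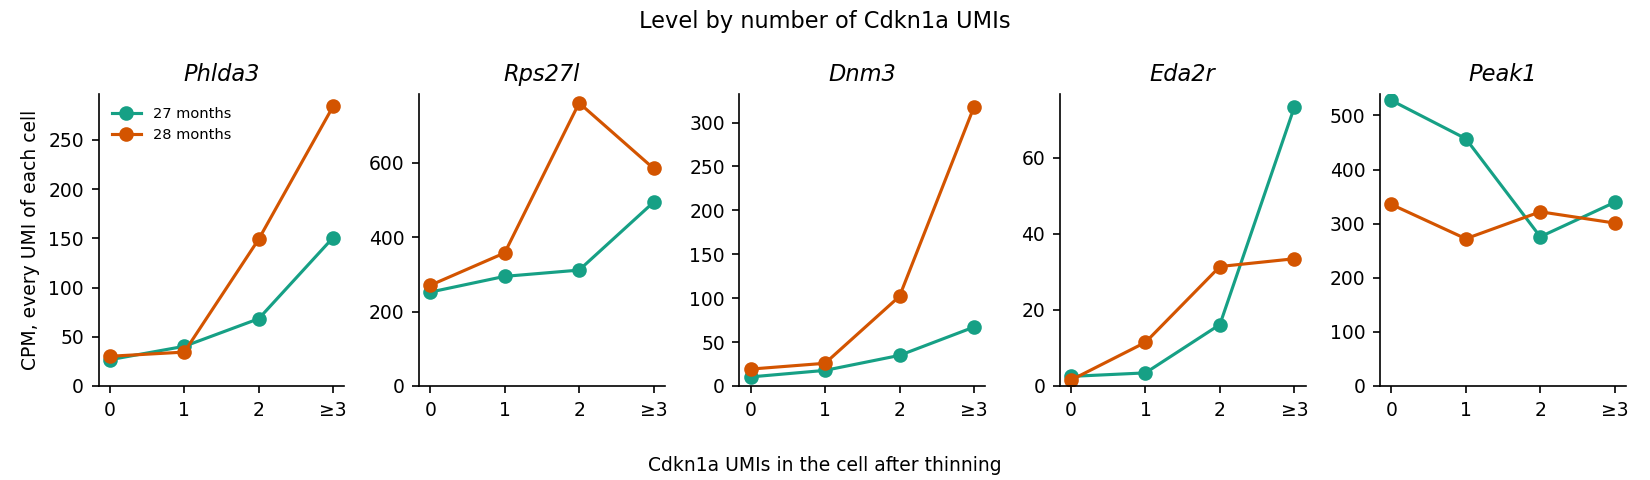
CPM of 5 genes, from every UMI of each SMC, against the number of Cdkn1a UMIs kept after thinning, in the libraries of 27 and 28 months. Phlda3 and Dnm3 increase at each step, from 26.6 to 151 CPM and from 10.2 to 67.0 CPM at 27 months.

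Some cells held several of these transcripts. The genes were picked for their level in positive cells, so the following shares are a description that this choice already shapes. Of the genes Eda2r, Gria3, Ano3, Dnm3 and Phlda3, at least 2 were found in 79 of 466 positive cells at 27 months (17.0%) and in 66 of 1822 negative cells (3.62%). At 28 months the counts were 16 of 73 (21.9%) and 32 of 831 (3.85%), and at 20 months 2 of 25 and 2 of 100. At least 3 of them were found in 34 positive and 11 negative cells at 27 months and in 9 and 4 cells at 28 months. The median depth of cells with at least 2 was 11620 UMIs in positive and 12508.5 UMIs in negative cells at 27 months.

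Immediate early genes, which encode transcription factors and feedback regulators that respond within minutes to growth factors and to the digestion of tissue, also leaned upward. Of 32 listed genes 25 were tested, 24 lay above 0 and 0 passed. The median log2 fold change was 0.16. At an unadjusted p under 0.05, 9 were higher and 0 lower, against 2.27% and 1.63% of all tested genes. Btg2 is on this list and on that of p53 targets, and is counted as higher in both. The lean differed between libraries. The median log2 ratio was 0.68 at 20 months, with 22 of 25 above 0, 0.15 at 27 months, with 22 of 25, and -0.02 at 28 months, with 12 of 25. Of all tested genes 44.5%, 50% and 49.8% lay above 0 in these libraries. The summed level of the list was 17380 CPM in positive and 10415 CPM in negative cells at 20 months, 22836 and 20699 CPM at 27 months, and 6459 and 6475 CPM at 28 months.

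Fos stood at 3020 and 1380 CPM at 20 months, 2943 and 2645 CPM at 27 months, and 356 and 299 CPM at 28 months (edgeR, adjusted p = 0.142). Junb stood at 1560 and 865, 1438 and 1135, and 178 and 153 CPM (edgeR, adjusted p = 0.142). Without TMM normalization Fos and Junb passed (edgeR, adjusted p = 0.0338 and 0.0358). Junb also passed with the second seed (edgeR, adjusted p = 0.0196). Both were higher in positive cells in all 3 libraries, with the widest gap at 20 months. Without that library the log2 fold change of Fos was 0.17 ± 0.09 (edgeR, adjusted p = 0.922), that of Egr1 0.19 ± 0.10 and that of Junb 0.33 ± 0.10. Egr1, a zinc finger factor, gave 0.37 ± 0.12 and the survival gene Ier3 0.43 ± 0.15 (edgeR, adjusted p = 0.566 and 0.64), but Egr1 was not higher at 28 months (185 and 188 CPM). Ccn1 and Ccn2, targets of YAP and TGF-beta, gave 0.09 ± 0.11 and 0.01 ± 0.10. At 27 months Fos showed no steady order with Cdkn1a UMIs, at 2714, 2844, 3148 and 2675 CPM. Junb stood there at 1142, 1289, 1674 and 1655 CPM. At 20 months Fos rose at each step, from 1289 to 3698 CPM, and Junb was highest at 2 Cdkn1a UMIs (2554 CPM), with 4 cells in each upper class. At 28 months neither showed a steady order.

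Contractile genes leaned slightly downward. Of 25 listed genes 23 could be tested and 20 lay below 0, with a median of -0.10 and 0 passing. Acta2, the actin of contractile filaments, stood at 26940 and 27645 CPM at 20 months, 11354 and 12342 CPM at 27 months, and 13192 and 13162 CPM at 28 months (-0.08 ± 0.10). Tagln, an actin-binding protein, gave -0.07 ± 0.10, Myl9, the regulatory light chain of myosin, -0.15 ± 0.10 and Flna, filamin A, -0.11 ± 0.10. At 27 months 22 of 23 lay below 0, but at 28 months 10 of 23 did, with a median log2 ratio of 0.0036. Over all tested genes, 49.2% lay above 0 in the fit, 50% at 27 months and 49.8% at 28 months. Without the library of 27 months 16 lay below 0 and the median was -0.01. Sncg, gamma-synuclein, was the member farthest above 0, at 0.35 ± 0.13.

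Of 31 matrix genes tested, 21 lay below 0 (median -0.05) and 0 passed. In the libraries 23, 16 and 22 of 31 lay below 0 at 20, 27 and 28 months. Of all tested genes 49.2% lay above 0 in the fit, and 44.5%, 50% and 49.8% in these libraries. Eln, tropoelastin of the elastic laminae, stood at 580 and 680 CPM at 20 months, 2254 and 2273 CPM at 27 months, and 1630 and 2382 CPM at 28 months (-0.24 ± 0.11, edgeR adjusted p = 1). With every UMI and no gene filter it passed, at -0.50 ± 0.12 (edgeR, adjusted p = 0.0278), where the median of all genes was -0.16. Mgp, matrix Gla protein, an inhibitor of calcification, stood at 2000 and 3355, 6673 and 6677, and 5445 and 6191 CPM (-0.24 ± 0.10, edgeR adjusted p = 0.997), and gave -0.08 ± 0.08 without the library of 20 months. The differences lay at 20 and 28 months, and the classes were nearly equal at 27 months, the library with the most cells. Bgn, Ogn, Timp3 and Col1a2 gave -0.12, 0.06, -0.05 and -0.05. With every UMI and the gene filter 38 matrix genes were tested, 11 lay above 0 and 27 below, and Thbs1 passed as higher. In that fit 49.6% of all genes lay above 0 and 0.124% passed as higher.

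Genes of the senescence-associated secretome lay on both sides of 0. Of 117 genes listed for the SenMayo signature 29 could be tested, 10 lay above 0 and 19 below, the median was -0.05 and 0 passed. Over all tested genes 49.2% lay above 0, and 2.27% were higher and 1.63% lower at an unadjusted p under 0.05. Higher at an unadjusted p under 0.05 were Mmp3 (0.33 ± 0.17) and the protease inhibitor Serpine2 (0.24 ± 0.11), and lower were the IGF-binding proteins Igfbp4 (-0.39 ± 0.15) and Igfbp5 (-0.34 ± 0.15) and the semaphorin Sema3f (-0.66 ± 0.23). The most abundant members Igfbp7 and Cd9 gave -0.19 ± 0.10 and -0.09 ± 0.10. Igfbp7 stood at 1620 and 2840 CPM at 20 months and was nearly equal in the other libraries, at 2036 and 2037 and at 2356 and 2408 CPM. With every UMI 33 members were tested, 16 lay above 0 and 17 below, and Mmp3 passed as higher. In that fit 49.6% of all genes lay above 0 and 0.124% passed as higher. Mmp3 also passed in thinned counts with the second seed and with at least 2 Cdkn1a UMIs. Cytokines of the signature had few UMIs. Over every UMI, Il6 had 18 UMIs in positive and 37 in negative cells, all at 27 months, which is 3.76 against 2.06 CPM since the negative class is larger. Cxcl1 had 18 and 25, also all at 27 months (3.76 against 1.39 CPM). Ccl2 had 6 and 14 in all, at 0.836 against 0.279 CPM at 27 months and 3.73 against 1.37 CPM at 28 months. These are too few counts for a test. Tnf, Ccl3 and Spp1 had 0 thinned UMIs in either class.

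Other cell cycle inhibitors were too rare for the test in thinned counts. Over every UMI, Cdkn2a, which encodes p16 and p19Arf, had 3 UMIs in 564 positive and 5 in 2753 negative cells. Cdkn2b (p15) had 32 and 132, and at 27 months stood at 6.48 and 6.35 CPM. Cdkn1b (p27) stood at 65.6 and 60.8 CPM at 27 months and 50.3 and 57.3 CPM at 28 months. Mki67, a marker of cycling cells, had 0 and 1 UMIs in all. The 15 proliferation genes summed to 140 against 150 CPM at 20 months, 89.1 against 86.2 CPM at 27 months and 103 against 64.4 CPM at 28 months in thinned counts. None was in enough cells to be tested there, and of the 3 tested with every UMI 1 lay above 0. Of the p21 partners, which include cyclins, their kinases and the pocket proteins, 6 could be tested, 4 lay above 0 and the median was 0.07. Among all tested genes 49.2% lay above 0. Ccnd2 gave 0.13 ± 0.13, Cdk4 0.33 ± 0.24 and Pcna 0.09 ± 0.24. Trp53 itself stood at 43.0 and 37.4 CPM at 27 months and 37.3 and 35.9 CPM at 28 months. At 20 months Trp53 went the other way, at 11.9 and 39.4 CPM from 1 and 14 UMIs. Mdm2, which targets p53 for degradation, stood at 61.8 and 55.9 CPM at 27 months and 101 and 42.6 CPM at 28 months. Its level at 20 months was 35.7 and 22.5 CPM, from 3 and 8 UMIs.

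In the stress, signalling and interferon lists 0 members passed either. Heat shock genes were split, with 6 of 14 above 0, against 49.2% of all tested genes, and a median of -0.02. Hspa8 and Hspb1 gave 0.04 ± 0.11 and 0.08 ± 0.11. Integrated and ER stress genes had a median of 0.02 over 9 members, oxidant response genes 0.11 over 11, with Sqstm1, the autophagy receptor p62, at 0.35 ± 0.15, and hypoxia and glycolysis genes -0.02 over 10, with Hk2, hexokinase 2, at 0.52 ± 0.20. NF-kB and cytokine genes had a median of 0.12 over 6, TGF-beta genes -0.02 over 17, with the inhibitor of DNA binding Id3 at 0.25 ± 0.11, and Notch genes 0.02 over 7, with the repressor Hes1 at 0.39 ± 0.15. Calcium and ion channel genes had a median of -0.01 over 9 and interferon genes -0.14 over 6.

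**Figure D4:**
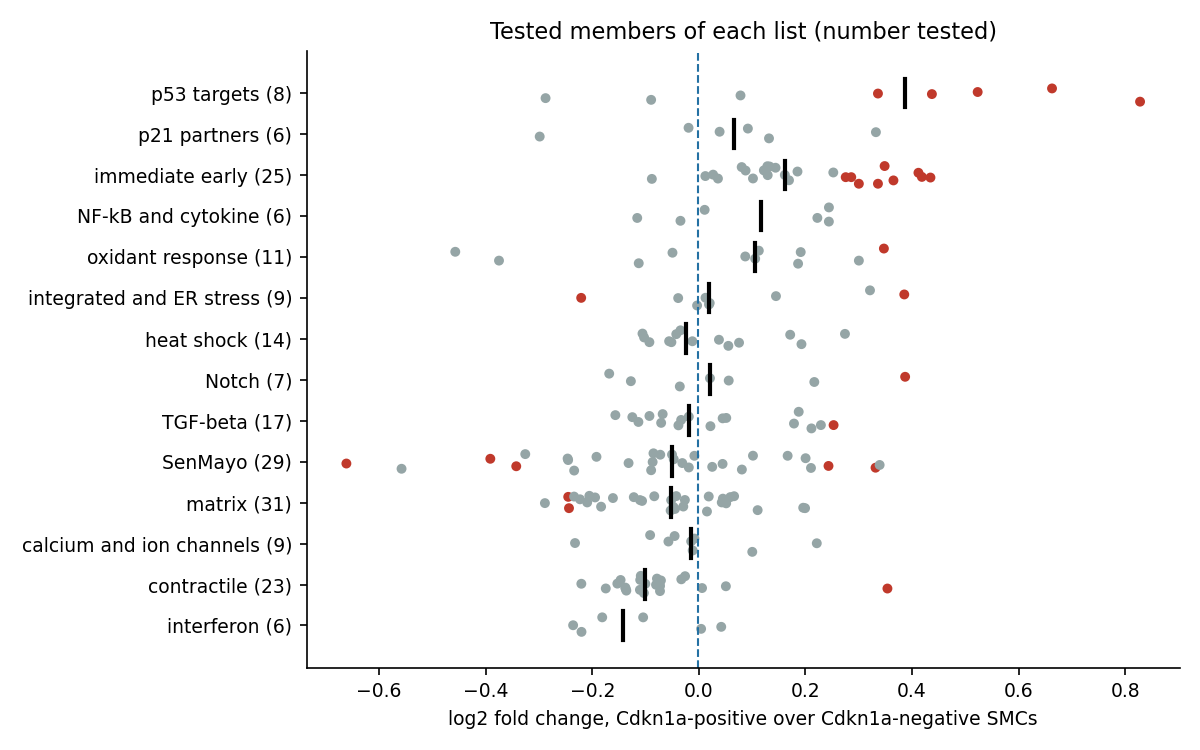
log2 fold change of every tested member of 14 gene lists, positive over negative SMCs, with red points at an unadjusted p under 0.05, black bars at list medians and a dashed line at the median of all 4046 genes. The p53 targets (median 0.39) and immediate early genes (median 0.16) lie to the right of the line, and 20 of 23 contractile genes lie below 0.

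The direction of the leading genes was steadier than their calls. Over 19 settings Peak1 lay below 0 in 19 and passed in 10, and Nxph1 lay above 0 in 19 and passed in 9. Rps27l lay above 0 in 19 and passed in 5, and Phlda3 lay above 0 in the 18 settings in which it could be tested and passed in 3. Without the library of 20 months, Nxph1, Peak1 and Rps27l passed. Without the library of 27 months, which held 466 of the 564 positive cells, 0 genes passed (edgeR, 138 at an unadjusted p under 0.05). Without the library of 20 months the list medians were -0.06 for contractile, -0.03 for matrix and -0.01 for SenMayo genes, and without that of 27 months they were 0.30 for immediate early, 0.12 for heat shock, -0.20 for matrix and -0.16 for SenMayo genes. The settings share cells, so their agreement is no replication.

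**Figure D5:**
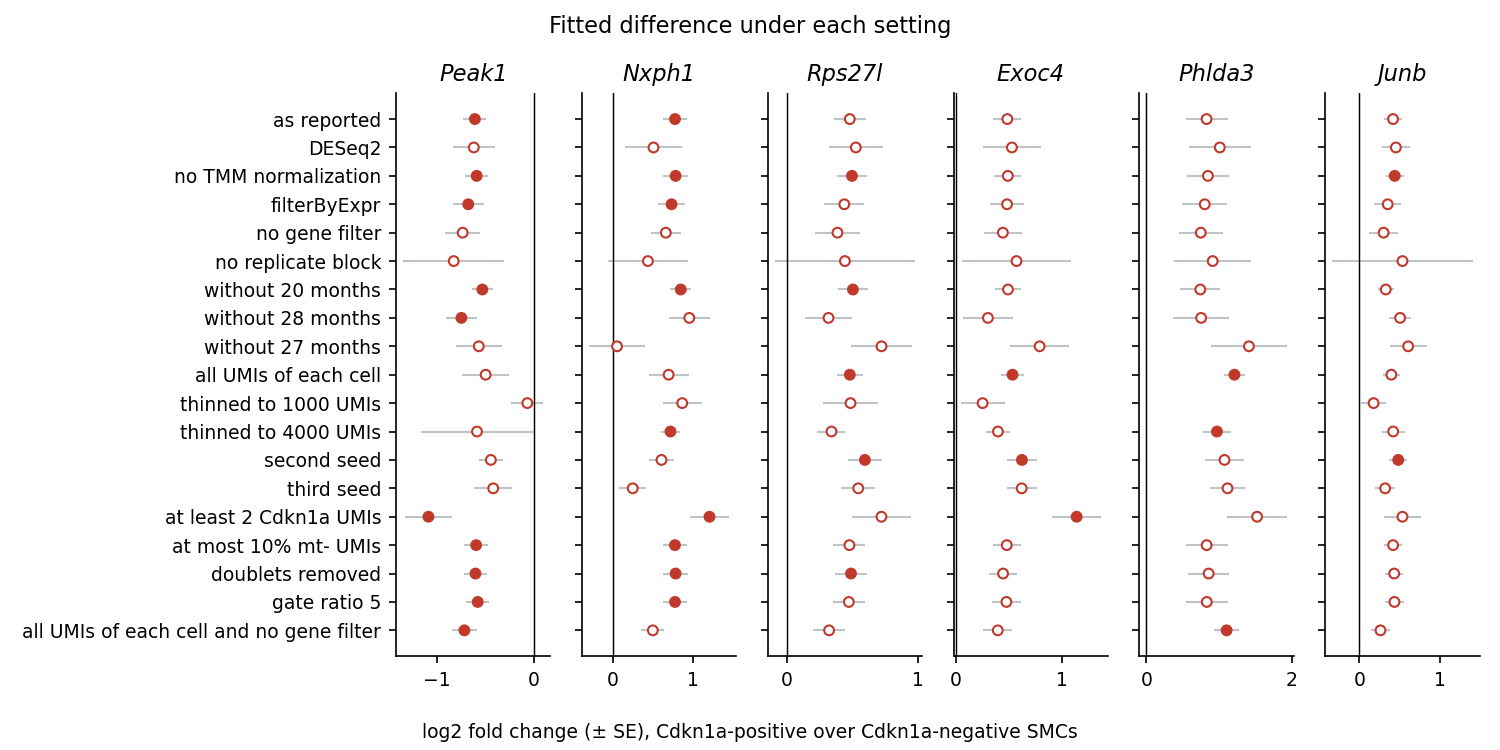
Fitted log2 fold change ± SE of 6 genes under each setting, with filled points where the adjusted p was under 0.05. Phlda3, Rps27l, Exoc4 and Junb lie above 0 in every setting shown, whereas Peak1 (-0.07 at 1000 UMIs) and Nxph1 (0.05 without 27 months) come near 0.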

How the data were processed

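The authors digested proximal PAs with collagenase and elastase, captured cells with 10x Genomics 3′ v3.1 chemistry, and ran Cutadapt and then STARsolo against GRCm38.p6. The deposited files hold UMI counts for each gene and barcode, without normalization and with near-empty barcodes kept. Sample ages came from the labels, and sex and strain from the study's methods. Gene symbols are those of the files, because most of their versioned identifiers are not in the annotation used here. RefSeq windows were used for sequences.

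Classes and lists were chosen with earlier results of these data known. Cells were thinned by sampling UMIs without replacement with a fixed seed per cell. Summed counts were fitted with edgeR 4.0.16 (TMM, robust quasi-likelihood F test, library as block, adjusted p under 0.05) in R 4.3.3. SEs are the absolute log2 fold change over the square root of F. Cdkn1a and the 12 gate genes were left out. The block is the library, since both classes of a pair come from the same library. Log2 ratios per library add 10 CPM to each class. Alternatives were DESeq2 1.42.0, no TMM, filterByExpr, no gene filter, no block, each library left out, every UMI, 1000 and 4000 UMIs, other seeds, at least 2 Cdkn1a UMIs, at most 10% mitochondrial UMIs, doublets removed, a gate ratio of 5 and, added after the data were seen, every UMI without a gene filter. Genes named are those that passed with the same sign in all libraries, then those of lowest p up to 6 a direction, and up to 6 members a list, the most abundant first. The others (Mmp3, Dnm3, Thbs1, Vcam1, Ephx1, Phlda3, Bax, Ier3, Serpine2, Igfbp4, Igfbp5, Sema3f, Sncg, Sqstm1, Hk2, Rps27, Mdm2 and those below the filter) were named after their values were seen.

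After the fit, the same test was run on counts simulated with its genes, library sizes and dispersion trend. Each gene took the dispersion of the trend and not its own, in a single draw per fold. Cells holding many UMIs of a gene were not modelled, so false calls in the real counts may be more frequent. With 0 genes changed it made 1 false call over 4046 genes. With 200 genes changed by a fold of 1.5 it recovered 38.5% of them, with 2 false calls. Doublets were marked with scrublet in scanpy 1.11.5. Tables, exact tests and plots were made in Python 3.11.15 (scipy 1.17.1, numpy 2.4.6, pandas 2.3.3, matplotlib 3.10.9).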

Additional observations from a re-analysis of the deposited data

How the results depend on the processing

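The number of genes that passed depended on most of the choices tried. Against 2 as reported, edgeR called 7 without TMM normalization, 6 with filterByExpr, 6 without a gene filter, 8 with every UMI, 30 with every UMI and no gene filter, 4 with the second seed, 0 with the third seed (126 at an unadjusted p under 0.05), 0 at 1000 UMIs per cell (68 at an unadjusted p under 0.05), 5 with at least 2 Cdkn1a UMIs and 5 with doublets removed. DESeq2 called 0 (15 at an unadjusted p under 0.05). Leaving out 1 library gave 0 to 3 calls. Without the library as replicate block edgeR called 0 genes (11 at an unadjusted p under 0.05), and the pairing comes from both classes sharing a library. Both reported genes were among the calls in the fits without TMM normalization, with filterByExpr, without the library of 20 months, with at least 2 Cdkn1a UMIs, at most 10% mitochondrial UMIs, doublets removed and a gate ratio of 5.

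The share of positive SMCs moved with the depth of thinning, to 8.0%, 12.4% and 6.08% at 1000 UMIs and to 32.5% and 15% at 4000 UMIs in the libraries of 27 and 28 months, and stayed within its interval under the other seeds, the mitochondrial limit, doublet removal and the gate ratio of 5. The direction reversed for Cdk2ap2 (0.10 at 1000 and 0.042 at 4000 UMIs), Adamtsl5 (0.10 and 0.17 with the other seeds), Ccdc3 (0.079 with the second seed), Perp (0.042 with every UMI, 0.16 at 4000 UMIs, 0.080 and 0.27 with the other seeds), Fas (0.49 at 1000 UMIs) and Sesn1 (-0.0089 with every UMI and no gene filter). The causes were not tested. The positive class held 50000 UMIs at 20 months and 146000 at 28 months, so the rarer genes rest on few counts there. The median of all genes moved to -0.14 without a gene filter.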
